A study of Mus musculus with 6 samples.

Results

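The 7 genes described here are receptors that guide the movement of leukocytes: the chemokine receptors Ccr1, Ccr2, Cx3cr1 and Cxcr4, the atypical receptor Ccrl2, and the sphingosine-1-phosphate receptors S1pr1 and S1pr2. They were taken by symbol from a table of 38087 Ensembl genes, each matched 1 row, and all 7 were among the 18899 genes tested. Expression was measured by poly-A selected RNA sequencing in bone marrow-derived macrophages, all from male mice of the C57BL/6J strain. The treatment protocol gives an age of 8 to 10 weeks and the sample labels give 2 to 4 months. In both groups, marrow cells were kept for 7 days with 10 ng/ml macrophage colony-stimulating factor and then for 24 h without it. The RvD1 group (3 libraries) then received 10 nM resolvin D1, a lipid mediator made from docosahexaenoic acid that acts on the receptor ALX/FPR2, for 6 h. The untreated group (3 libraries) received no RvD1, and no vehicle is named for it. The comparison asks which receptor transcripts differed 6 h after RvD1. The labels do not state if replicates are separate mice or separate cultures, so the p-values measure the spread between these libraries, which may be technical.

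Chemokine receptors are membrane proteins of the family that signals through G proteins, and each directs cells toward a source of its ligand. Ccr2 draws classical monocytes out of the marrow, Cx3cr1 marks non-classical monocytes and many resident macrophages, Cxcr4 holds cells in the marrow niche, and Ccr1 responds to several CC chemokines of inflamed tissue. Ccrl2 binds the chemoattractant chemerin and presents it to neighbouring cells without signalling itself. S1pr1 couples to the Gi class of G proteins and favours movement toward sphingosine-1-phosphate, whereas S1pr2 also couples to the G12/13 class and restrains migration.

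The family's shared design can be read in the coding bases at the inner end of the third membrane helix. There, many G protein-coupled receptors carry the 3-residue motif known as DRY. S1pr1 differs from it in the first residue only, which is acidic in both (ERY), and S1pr2 and Ccrl2 depart further. The stretches below are 27 coding bases each, from the longest GENCODE M21 transcript of the gene, 5′ to 3′. Capitals mark the 3 codons that align with the motif of Ccr1.
Ccr1: ttgacgattGACAGATACctggccatt
Ccr2: ctgacaattGATAGGTACttggctatt
Cx3cr1: atcagcatcGACCGGTACcttgccatc
Cxcr4: atcagcctgGACCGGTACctcgctatt
S1pr1: atcgccattGAGCGCTACatcaccatg
S1pr2: atcgccatcGAGAGACAAgtggccctc
Ccrl2: ctccttgtgCAAGGATACagggtgttt
Ccr2, Cx3cr1 and Cxcr4 encode the same 3 residues as Ccr1 with 7 of 9 bases in common. S1pr1 keeps 2 of the 3 residues, and S1pr2 and Ccrl2 keep 1 each, with 6 of 9 bases in common in all 3 genes. The middle residue, arginine, is kept in S1pr1 and S1pr2 but not in Ccrl2. Over the whole translated coding sequence Ccr1 and Ccr2 were 53.8% identical, S1pr1 and S1pr2 48.9%, and Ccr1 and Ccrl2 34.1%.

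Values are log2 of the authors' normalized read numbers, with a floor at 0. All 10 macrophage markers of a fixed list were present, the lowest being Fcgr1 and Mertk, which ranged from 9.88 to 10.41 and from 9.91 to 10.37. Markers of other cells were present as well. A mean of at least 5 was reached by 6 of 7 fibroblast and stromal markers (Col1a1, 13.83 to 14.39, but Lum 0 to 1.93). The same held for 6 of 9 neutrophil markers (S100a9, 10.31 to 12.21, but Elane 1.18 to 3.99). Of 6 endothelial markers, 4 reached it (Cdh5, 7.26 to 9.12, but Cldn5 0 to 3.42). For T cells, 0 of 7 markers reached it, and 2 of them, Cd3e and Cd3g, were listed at 0 in every library. Of 6 B cell markers, 3 were listed at 0 in every library, among them Ms4a1 and Pax5, but Ebf1 (8.24 to 8.99) and Cd79b (4.74 to 5.42) were present. Estimated depth was 9.07 to 14.3 M reads in the untreated and 11.2 to 16.3 M in the RvD1 libraries. In such bulk samples, fewer cells of a type and less RNA per cell cannot be told apart.

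None of the 7 receptors passed the test across all genes (limma, Benjamini-Hochberg adjusted p under 0.05), where 1.12% of all tested genes did. Of the 7, 6 had positive log2 fold changes and 1, S1pr2, a negative one. The median log2 fold change of the 7 was 0.33 and that of all genes tested 0.00441. Without untreated replicate 1 the median of the 7 was 0.15. S1pr1 was the 1 member at an unadjusted p under 0.05, a level that 19.9% of all tested genes reached. It was also the 1 member whose groups did not overlap, which was the case for 25.4% of all tested genes.

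S1pr1 stood at 10.93, 10.99 and 11.10 (log2) in untreated replicates 1, 2 and 3 and at 11.19, 11.36 and 11.42 in RvD1 replicates 1, 2 and 3. Every RvD1 library lay above every untreated library, and the spread within a group was small (SD 0.09 and 0.12, n = 3 each). The difference corresponded to a 1.25-fold higher mean with RvD1 (95% interval 1.11 to 1.40) and had an adjusted p of 0.0759 in limma, short of the threshold. Without RvD1 replicate 1 the difference was 0.38 on the log2 scale and passed (limma adjusted p = 0.0412). When any of the other 5 libraries was left out it did not pass (limma adjusted p from 0.138 to 0.238). S1pr1 is also made by endothelial cells. The summed level of the 6 endothelial markers was 740 to 868 normalized reads in the untreated and 750 to 1546 in the RvD1 libraries, highest in RvD1 replicate 1, where S1pr1 was lowest of the 3 RvD1 libraries. The markers in this sum differed in profile. Cdh5, Pecam1, Kdr, Tek and Cldn5 were each highest in RvD1 replicate 1, and Vwf in untreated replicate 2. Cdh5 stood at 7.97, 7.26 and 7.49 in the untreated and 9.12, 7.55 and 8.00 in the RvD1 libraries (log2, replicates 1, 2 and 3). Vwf stood at 8.35, 8.69 and 8.64 in the untreated and 8.49, 8.37 and 8.61 in the RvD1 libraries. The part of endothelial RNA in the S1pr1 values was not tested.

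S1pr2 stood at 10.48, 10.70 and 10.83 in the untreated and 10.50, 10.63 and 10.71 in the RvD1 libraries (log2, replicates 1, 2 and 3). All 3 RvD1 values lay inside the untreated range. The log2 fold change was -0.06 (95% interval -0.27 to 0.15; limma adjusted p = 0.767), and without untreated replicate 3 it turned to 0.020.

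Because both genes are measured in the same library, the difference S1pr1 minus S1pr2 does not depend on any single factor by which a library was scaled. It was 0.44, 0.29 and 0.26 in the untreated and 0.69, 0.73 and 0.71 in the RvD1 libraries (log2, replicates 1, 2 and 3). The RvD1 libraries formed a narrow band above all untreated ones, with a gap of 0.25 between the nearest libraries. The means were 0.33 ± 0.10 untreated and 0.71 ± 0.02 with RvD1 (SD, n = 3), a difference of 0.38 (two-sided exact permutation p = 0.10, the smallest that 3 against 3 allows). S1pr1 alone, with a log2 fold change of 0.32, already separated the groups, as did 25.4% of all tested genes. The share of other gene pairs that separate the groups was not computed. The pair was chosen with earlier results of these data known.

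**Figure D1:**
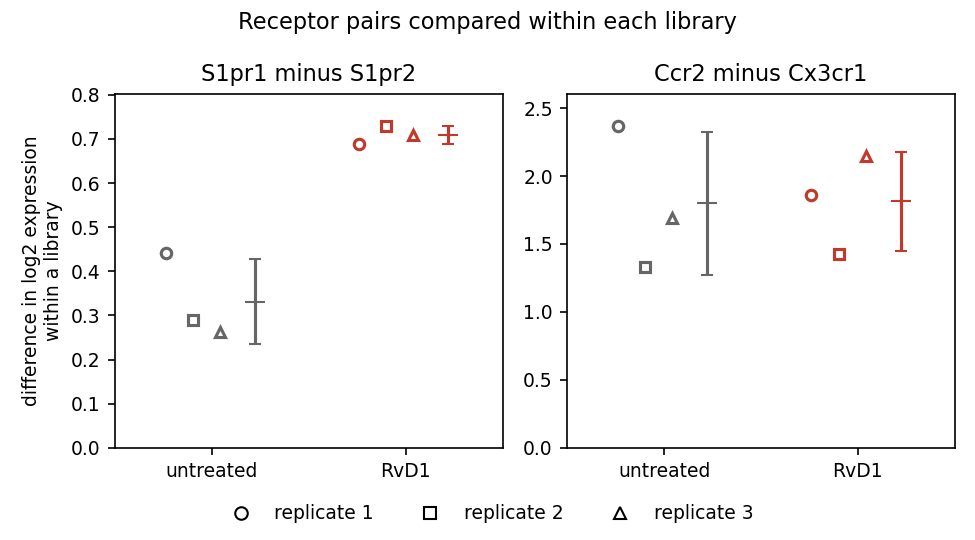
Difference in log2 expression between paired receptors within each library (y axis), for the untreated and RvD1 groups (x axis). Symbols are replicates and bars the mean with its SD; S1pr1 minus S1pr2 was 0.26 to 0.44 untreated and 0.69 to 0.73 with RvD1, while Ccr2 minus Cx3cr1 overlapped between groups.

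Of the other sphingosine-1-phosphate receptors, S1pr3 stood at 9.70, 9.30 and 9.20 in the untreated and 10.03, 9.42 and 9.46 in the RvD1 libraries, and the groups overlapped (log2 fold change 0.24, SE 0.18, limma adjusted p = 0.498). S1pr4 ranged from 2.62 to 4.96, and S1pr5 was listed at 0 in all 6 libraries. Among 14 genes that make, export or degrade sphingosine-1-phosphate or release its precursor sphingosine, 0 passed in limma. At an unadjusted p under 0.05, reached by 19.9% of all tested genes, 1 was higher and 1 lower. The median log2 fold change of the 14 was 0.02. The smallest p belonged to the ceramidase Acer3 (adjusted p = 0.133 in limma), with a log2 fold change of 0.24 and an SE of 0.07.

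Cxcr4, the receptor for the stromal chemokine Cxcl12, stood at 9.47, 10.17 and 10.18 in the untreated and 9.87, 10.53 and 10.58 in the RvD1 libraries (log2, replicates 1, 2 and 3). Replicate 1 was the lowest library of both groups, and RvD1 replicate 1 lay below untreated replicates 2 and 3. The mean was 1.30-fold higher with RvD1, with a 95% interval of 0.908 to 1.88 that included no change (limma adjusted p = 0.397). The log2 fold change of 0.38 was 0.15 without untreated replicate 1 and 0.61 without RvD1 replicate 1.

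Ccrl2 stood at 5.46, 6.52 and 6.69 in the untreated and 6.39, 6.80 and 6.74 in the RvD1 libraries (log2). The untreated group was wide because of replicate 1 (SD 0.67 against 0.22 with RvD1). The log2 fold change of 0.42 (95% interval -0.26 to 1.09; limma adjusted p = 0.484) was 0.034 without that library and 0.65 without untreated replicate 3. Of the other chemerin receptors, Cmklr1, which does signal, ranged from 8.15 to 8.46 with overlapping groups (log2 fold change -0.03, SE 0.10), and Gpr1 was listed at 0 in every library.

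Cx3cr1, the receptor for the membrane-bound chemokine Cx3cl1, stood at 6.31, 6.92 and 7.05 in the untreated and 6.80, 7.41 and 7.07 in the RvD1 libraries (log2). Untreated replicate 1 was again the lowest library, and the groups overlapped. The log2 fold change was 0.33 (95% interval -0.16 to 0.83; limma adjusted p = 0.440) and was 0.11 without untreated replicate 1 and 0.18 without RvD1 replicate 2. In GENCODE M21 an exon of Gm33858 on the other strand overlaps Cx3cr1, and no strand-marking step is described for the library kit. Reads from the bases that both genes share may therefore not have been separated.

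The low first replicates were shared by markers of neutrophils, cells that also carry Cxcr4. The summed level of 9 neutrophil markers was 4191, 6634 and 14689 normalized reads in the untreated and 5431, 7634 and 14295 in the RvD1 libraries (replicates 1, 2 and 3). Its lowest library was untreated replicate 1, as for 5 of the 7 receptors and for the sum of the 10 macrophage markers, and its ranges in the groups overlapped. The neutrophil gene Ly6g was near the floor in untreated replicates 1 and 2. The part of these cells in the receptor values was not tested. The plot of marker sums shows these libraries beside those of 3 other cell types.

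**Figure D2:**
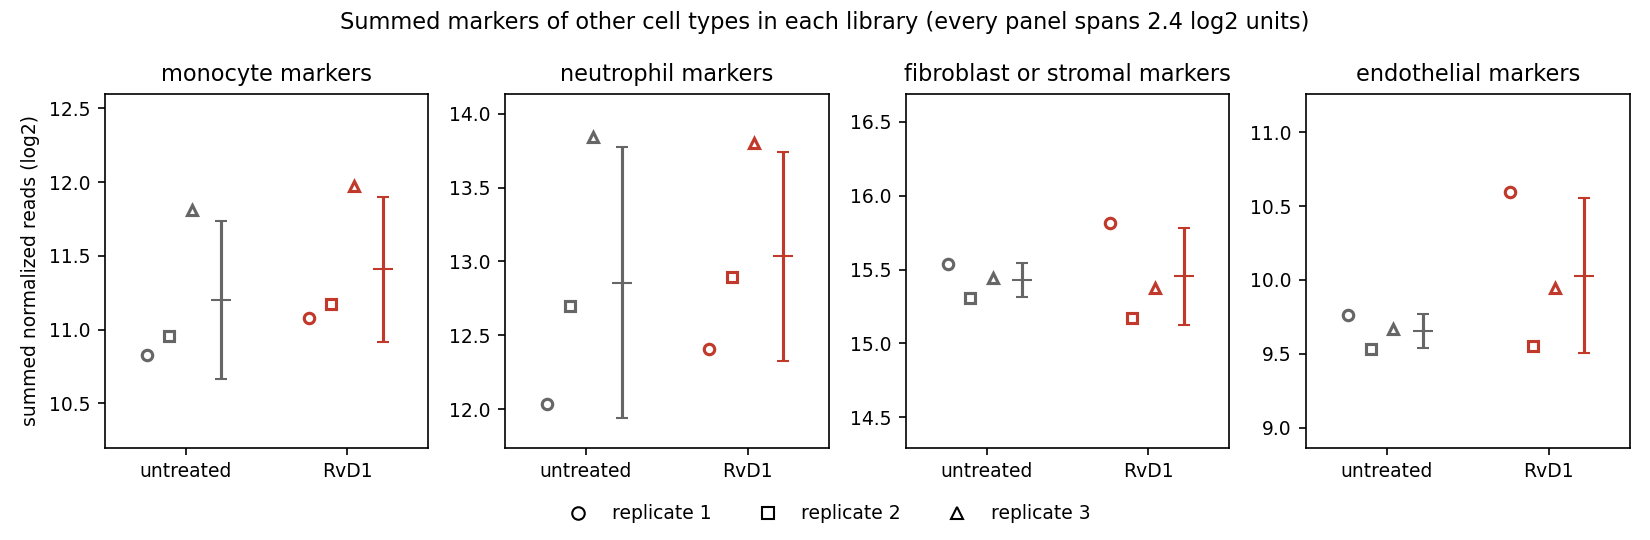
Summed normalized reads of marker genes on a log2 scale (y axis) for monocytes, neutrophils, fibroblasts or stroma, and endothelium in each untreated and RvD1 library (x axis). Symbols are replicates and bars the mean with its SD of the log2 sums; monocyte and neutrophil sums were highest in replicate 3 of both groups, and the endothelial sum was highest in RvD1 replicate 1.

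Ccr1, which binds Ccl3, Ccl5 and other inflammatory CC chemokines, stood at 10.15, 10.04 and 10.32 in the untreated and 10.22, 10.29 and 10.53 in the RvD1 libraries (log2). The groups overlapped. The log2 fold change was 0.18 (95% interval -0.04 to 0.40; limma adjusted p = 0.353). It was 0.087 without RvD1 replicate 3 and 0.11 without untreated replicate 2.

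Ccr2, the receptor for Ccl2 and Ccl7, stood at 8.68, 8.25 and 8.74 in the untreated and 8.66, 8.84 and 9.22 in the RvD1 libraries (log2). RvD1 replicates 2 and 3 lay above all untreated libraries and RvD1 replicate 1 did not. The mean was 1.27-fold higher with RvD1 (95% interval 0.983 to 1.65; limma adjusted p = 0.279). The log2 fold change of 0.35 was 0.19 without RvD1 replicate 3 and 0.20 without untreated replicate 2. The summed level of 6 monocyte markers was 1816, 1988 and 3594 normalized reads in the untreated and 2160, 2311 and 4018 in the RvD1 libraries. Like Ccr2 it was highest in RvD1 replicate 3. From untreated replicate 1 to untreated replicate 3 it went from 1816 to 3594, and Ccr2 from 8.68 to 8.74. Chil3 was the highest of the 6 markers in every library (9.84 to 11.42, log2). The part of monocytes in the Ccr2 values was not tested. Ccr2 minus Cx3cr1, the pair that separates classical from non-classical monocytes, was 2.37, 1.33 and 1.69 in the untreated and 1.86, 1.43 and 2.15 in the RvD1 libraries. The ranges overlapped and the means of 1.80 ± 0.53 and 1.81 ± 0.36 (SD, n = 3) differed by 0.01 (two-sided exact permutation p = 1).

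The longest transcripts of Ccr1 and Ccr2 had the lowest GC content of the 7, 39.1% and 39.4%, against a median of 49.7% over the tested genes, and 46.1% to 51.6% in the other members. The Ccr2 transcript was also long, at 5728 bases against a median of 2759. After a correction of each library for transcript length and GC content together, the log2 fold change of Ccr1 went from 0.18 to 0.02 and that of Ccr2 from 0.35 to 0.14. S1pr1 went from 0.32 to 0.29, Cxcr4 from 0.38 to 0.34, Cx3cr1 from 0.33 to 0.31, Ccrl2 from 0.42 to 0.41 and S1pr2 from -0.06 to -0.095. Length and GC content were not corrected one at a time.

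**Figure D3:**
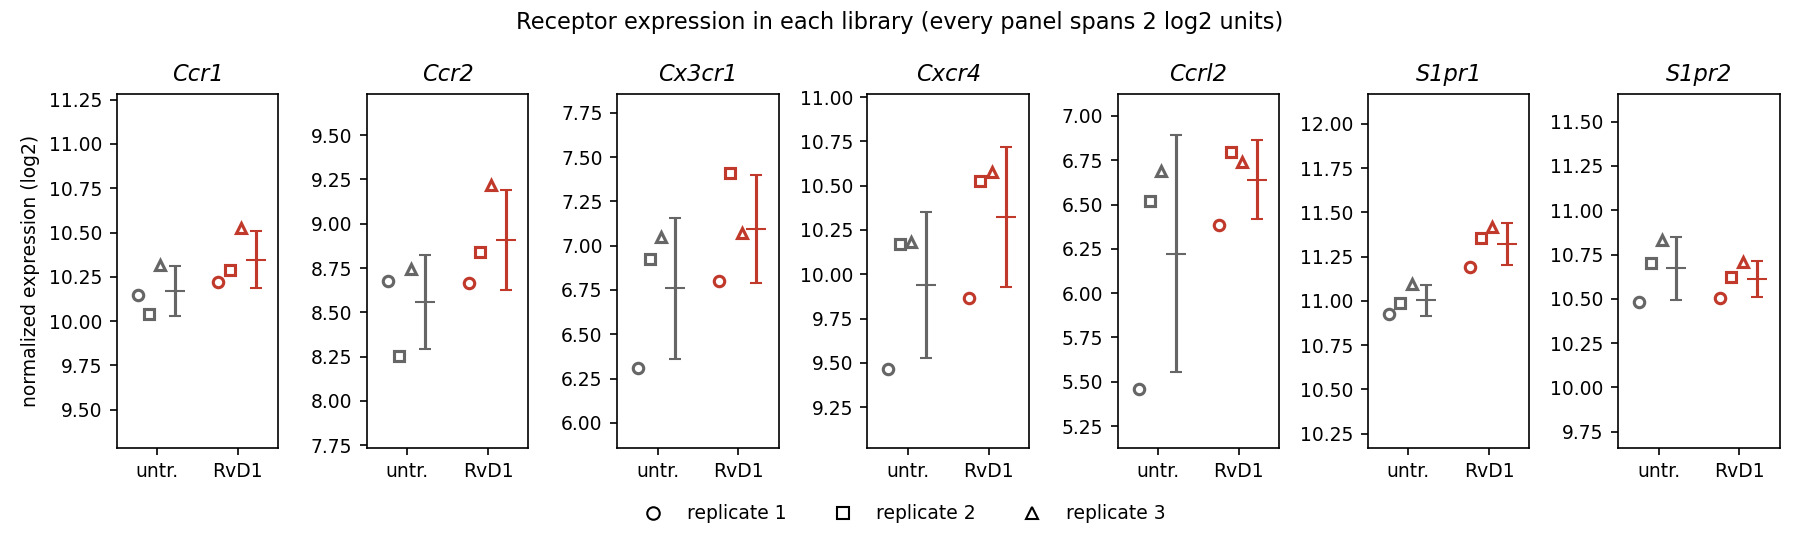
Normalized expression on a log2 scale (y axis, every panel spanning 2 units) of the 7 receptors in untreated (untr.) and RvD1 libraries (x axis). Symbols are replicates and bars the mean with its SD; the groups are apart for S1pr1, at 10.93 to 11.10 and 11.19 to 11.42, and overlap for the other 6.

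Per kilobase of the longest transcript, S1pr1 was the most abundant of the 7 in the untreated cells and Cx3cr1 the least. The length-scaled log2 levels (mean over the 3 untreated libraries) were 9.40 for S1pr1, 9.09 for Cxcr4, 8.67 for Ccr1, 8.00 for S1pr2, 6.04 for Ccr2, 4.93 for Ccrl2 and 4.59 for Cx3cr1. With RvD1 the order of the means was the same. The ranges over libraries overlapped for S1pr1 and Cxcr4, for Cxcr4 and Ccr1, and for Ccrl2 and Cx3cr1. Within libraries, S1pr1 lay above Cxcr4 in 6 of 6, Cxcr4 above Ccr1 in 5 of 6 and Ccrl2 above Cx3cr1 in 6 of 6. The steps from Ccr1 to S1pr2, from S1pr2 to Ccr2 and from Ccr2 to Ccrl2 separated the ranges in both groups. On the same scale S1pr3 was at 7.24. The order depends on the transcript length used, and GENCODE lists 4 transcripts each for S1pr2 and Ccr2 and 3 each for Ccrl2 and Cx3cr1. Without length scaling, the untreated mean of S1pr2 (10.67) lay above those of Ccr1 (10.17) and Cxcr4 (9.94). That of Cx3cr1 (6.76) lay above that of Ccrl2 (6.22). Levels with other transcript lengths were not computed.

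Of a list of 19 chemokine receptors without the atypical ones, 14 were tested. Of the rest, 3 (Ccr6, Ccr8 and Cxcr1) were listed at 0 in every library, and Ccr4 and Cxcr5 were above 0 in 2 libraries each. None of the 14 passed in limma (at an unadjusted p under 0.05, reached by 19.9% of all tested genes, 0 were higher and 1 lower). Of the 14, 7 were positive and 7 negative, and their median log2 fold change was 0.03. Ccr3, an eosinophil receptor, had one of -0.11 (95% interval -0.50 to 0.27), the neutrophil receptor Cxcr2 one of 0.56 (-0.53 to 1.65) and Cxcr3 one of -0.59 (-1.51 to 0.33). The member at an unadjusted p under 0.05 was Ccr1l1, which lay between 0 and 2.63 and was listed at 0 in 2 RvD1 libraries. Ccr7, Ccr9, Ccr10, Cxcr6 and Xcr1 did not exceed 3.80 in any library. Of the atypical receptors beside Ccrl2, Ackr3, a scavenger of Cxcl12, ranged from 3.91 to 5.26, Ackr2 and Ackr4 stayed at or below 2.19, and Ackr1 was listed at 0. The plot of receptor changes shows the 95% intervals of the receptors named here that have a mean level of at least 3.

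**Figure D4:**
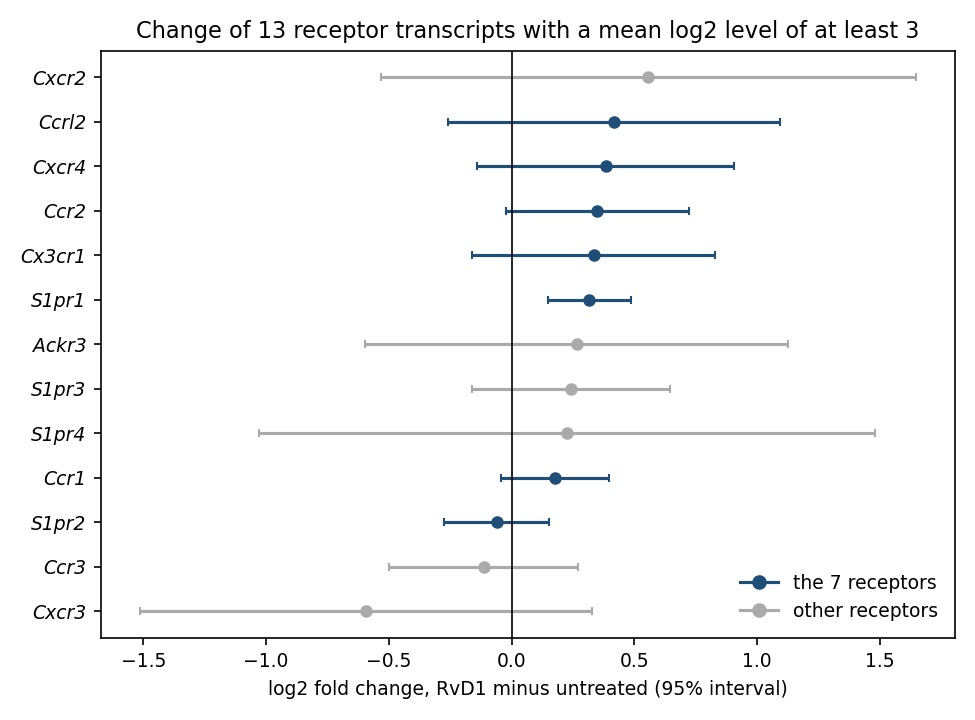
Log2 fold change, RvD1 minus untreated, with its 95% interval from limma (x axis) for 13 chemokine, atypical and sphingosine-1-phosphate receptors with a mean log2 level of at least 3 (y axis). The 7 receptors are dark and the others grey; the interval of S1pr1, 0.15 to 0.48, is the only 1 of the 13 that does not include 0.

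Ligands of these receptors were transcribed in the same cultures. Of 13 tested ligand genes 0 passed in limma, with a median log2 fold change of 0.10. At an unadjusted p under 0.05, reached by 19.9% of all tested genes, 3 were higher and 1 lower. The smallest p belonged to Mif, a cytokine that also binds Cxcr4, at 10.43, 10.47 and 10.41 in the untreated and 10.28, 9.88 and 10.04 in the RvD1 libraries. All RvD1 values of Mif were lower (-0.37 on the log2 scale, SE 0.09, adjusted p = 0.0854 in limma). The main ligands of Ccr2, Cxcr4 and Cx3cr1 were looked up after their values were seen. Ccl7 had a log2 fold change of 0.64 (95% interval 0.24 to 1.05, limma adjusted p = 0.102). Its groups were apart, as they were for 25.4% of all tested genes. The log2 fold change was 0.38 for Ccl2, 0.27 for Cxcl12 and -0.05 for Cx3cl1. Cxcl12 ranged from 11.38 to 12.31 and was highest in RvD1 replicate 1, the library with the highest sum of fibroblast and stromal markers.

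Downstream of the receptors, 0 of 15 G protein subunits, 0 of 16 receptor kinases, arrestins and RGS proteins, and 0 of 21 genes of migration signalling passed in limma. At an unadjusted p under 0.05 these lists held 3 higher and 2 lower, 3 higher and 2 lower, and 1 higher and 2 lower genes. Of all tested genes, 19.9% reached this level. The median log2 fold changes of the 3 lists were 0.07, 0.02 and 0.02. The smallest p of each list belonged to Gng2, Arrb2 and Rap1a. Gng2, a G protein gamma subunit, had a log2 fold change of 0.30 (SE 0.09, adjusted p = 0.123 in limma). Arrb2, an arrestin that desensitizes chemokine receptors, had one of -0.26 (SE 0.07, adjusted p = 0.0913 in limma). Arrb1, the other beta-arrestin of the list, had one of -0.003. Rap1a, a GTPase that activates integrins, had one of 0.25 (SE 0.07, adjusted p = 0.0989 in limma). Of 10 transcription factors and partners known to control these receptors, 1 rose and 0 fell in limma, where 1.12% of all tested genes passed. At an unadjusted p under 0.05, reached by 19.9% of all tested genes, 2 were higher and 2 lower. The gene that passed was Hif1a, the oxygen-regulated factor whose known targets include Cxcr4. Hif1a stood at 11.26, 11.17 and 11.19 in the untreated and 11.53, 11.58 and 11.50 in the RvD1 libraries, a 1.26-fold rise (limma adjusted p = 0.0372). Corrected for transcript length and GC, the rise in Hif1a was 0.17 (SE 0.04) in place of 0.33 (SE 0.05) on the log2 scale and did not pass (adjusted p = 0.196 in limma). The call also ended without the variance trend (adjusted p = 0.187) and without the filter on low values (0.0553). It ended as well when any library but RvD1 replicate 1 was left out (adjusted p from 0.0931 to 0.157), with log2 fold changes of 0.31 to 0.36.

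The 250 bases before the RefSeq start site were searched on both strands for the core of the hypoxia response element, ACGTG or GCGTG, which Hif1a binds, and for 4 other motifs of macrophage factors. RefSeq windows on GRCm38.p6, the assembly called mm10, were found for 6 of the 7 receptors (8 windows, of which Ccrl2 has 3 that overlap in part). The windows of Cxcr4, S1pr2 and Ccr1 lie outside the GENCODE gene, whereas those of Ccr2, Cx3cr1 and Ccrl2 lie wholly or partly inside it, because GENCODE has transcripts that start farther upstream. Windows of Cxcr4, S1pr2, Ccrl2 and Ccr1 held the core and those of Cx3cr1 and Ccr2 did not. Of all 32851 mouse windows of this length, 38.6% held it. The KLF motif CCNCACCC was found in 3 of the 8 windows (S1pr2 and 2 of Ccrl2; 14.9% of all windows). The motifs of AP-1 (TGANTCA, 6.75% of all windows), PU.1 (GAGGAAGT, 2.44%) and NF-kB (0.356%) were found in 0 of the 8. The window of Cxcr4, chr1:128592300-128592549 on the minus strand, is printed with its 1 core in capitals, 39 bases before the start site. It is shown because Cxcr4 is a known target of Hif1a, and it runs 5′ to 3′ toward the gene.
Cxcr4: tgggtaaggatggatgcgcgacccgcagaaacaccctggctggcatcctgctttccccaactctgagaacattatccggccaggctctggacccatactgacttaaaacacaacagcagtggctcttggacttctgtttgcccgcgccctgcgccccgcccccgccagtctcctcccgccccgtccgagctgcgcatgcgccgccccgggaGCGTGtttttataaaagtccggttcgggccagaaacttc
The window has 61.2% GC and 19 CG dinucleotides, against medians of 52.4% and 6 over all windows. The match is a description of letters, and Cxcr4 did not pass the test.

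In the genome, 5 of the 7 receptors lie on chromosome 9 (GENCODE M21, mm10). Ccr1 (123962124 to 123968692, minus strand) and Ccr2 (124101950 to 124113557, plus strand) lie in 1 stretch of 151 kb. Cx3cr1 (119901616 to 120069879), Ccrl2 (111054486 to 111057519) and S1pr2 (20962361 to 20976781) lie on its minus strand. Cxcr4 is on chromosome 1 (128588199 to 128592293) and S1pr1 on chromosome 3 (115710433 to 115715072), both on the minus strand. In the longest transcripts the protein is encoded by 1 exon in 6 of the 7 genes and by 2 exons in Cxcr4. Windows of 50 bases that also occur in the transcript of another gene made up 2.27% of Ccr2, 0.930% of S1pr2 and 0.270% of Cx3cr1, and the transcripts of Ccr1, Cxcr4, S1pr1 and Ccrl2 held none.

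Across the 6 libraries the members fell into profiles of different shape, given here as descriptions over libraries that share scaling and treatment. Pearson's r was 0.96 between Ccr1 and Ccr2, which both peaked in RvD1 replicate 3. It was 0.93 between Cxcr4 and Cx3cr1, 0.92 between Cxcr4 and Ccrl2 and 0.94 between Cx3cr1 and Ccrl2. Cxcr4, Cx3cr1 and Ccrl2 were all lowest in untreated replicate 1, as were S1pr1 and S1pr2. S1pr1 and S1pr2 had an r of 0.18, whereas S1pr1 had an r of 0.70 to 0.82 with each other member. Among 13176 genes with a mean log2 level of at least 5, the most similar profiles to S1pr1 were those of 9930111J21Rik2 and Tigd2 (r = 0.997 and 0.991), to S1pr2 those of Slc3a2 and Selplg (0.997 and 0.996), and to Cxcr4 those of Mfsd7b and Zfp866 (both 0.995). For Ccr1 they were Dbp and Lyn (0.989 and 0.986), for Ccr2 Calm2 and l7Rn6 (0.997 and 0.987), for Cx3cr1 Tnip3 and Ankrd28 (0.993 and 0.986), and for Ccrl2 Zfp236 and Tapbpl (0.990 and 0.988). For each of the 7 profiles searched the closest gene had an r of at least 0.989.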

How the data were processed

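RNA was sequenced in 6 mouse macrophage libraries, 3 per group, and groups and replicate numbers were read from the sample titles. The authors deposited 1 table of normalized values per library, per the file headers, which were read as log2 normalized read numbers: none lay below 0 and the antilogs summed to 12.4 to 12.8 M in every library. The submitters' processing notes list TopHat2 2.0.7 and mm10. The sources used here do not name the read counter or the normalization. Decimal commas were read as points. Depth was estimated from the step between low values; the share of low values that came out whole, with a tolerance of 0.1 reads, was 52.1% to 61.3%, and no count test was run.

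Genes above 0 in at least 3 libraries were tested with limma 3.58.1 (R 4.3.3), with a variance trend and treatment as the only term, on the values as deposited, with Benjamini-Hochberg adjustment over all 18899 genes. The fit was tried on simulated data with independent noise in each library. Such data cannot show how the fit handles differences between libraries that many genes share. Members, lists and pairs were chosen with earlier results of these data known. Named genes were the members, all genes of the 3 receptor lists, up to 4 genes past the test (or the smallest p) per other list, and the 2 most similar profiles per member. Older symbols were matched by identifier to GENCODE M21, in which 36308 of 38087 identifiers were found. The length and GC correction used splines with 4 degrees of freedom. Some listed genes are not reported here. Python 3.11.15 and pandas 2.3.3 were used for tables and matplotlib 3.10.9 for figures.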

Additional observations from a re-analysis of the deposited data

How the results depend on the processing

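Each of the 7 receptors was refitted under 15 alternatives, 6 of which left out a library. Of these 105 values, 99 kept their direction and their side of the threshold, 5 passed where the reported fit did not, and 1 reversed. This was S1pr2, with log2 fold changes of -0.16 to 0.020 when single libraries were left out, the 0.020 without untreated replicate 3. The number of receptors past the limma test, 0 as reported, was 0 to 1 when single libraries were left out. The count over all genes, 211 as reported, was 12 without the filter on low values, 464 where the mean log2 value had to reach 5, 1 without the variance trend, 36 after the length and GC correction, and 0 to 451 when single libraries were left out; the cause was not tested. The 3 limma fits with 0 calls (untreated replicate 3, RvD1 replicate 2 or RvD1 replicate 3 left out) had an unadjusted p under 0.05 for 3045, 2623 and 3203 genes.

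With the replicate number as a replicate block, S1pr1 and Cxcr4 passed, 2 of the 7 (limma adjusted p = 0.00674 and 0.00488), and the count over all genes was 1896. With the replicate block plus correction for length and GC, the number was again 2 and the count over all genes 770. The labels do not say that a number marks a shared mouse or day. Deviations from the group means correlated between same-numbered libraries at 0.301, -0.0801 and 0.417 for replicates 1, 2 and 3 over 13176 genes. The r was -0.393 between untreated replicate 1 and RvD1 replicate 3, and -0.383 between untreated replicate 3 and RvD1 replicate 1. The other unlike-numbered libraries had an r of -0.03 to 0.09. Deviations within a group of 3 sum to 0, so these values cannot decide if the numbers mark pairs. In the sign-flip test within replicate numbers, S1pr1 minus S1pr2 had an exact p of 0.25, the smallest that 3 pairs allow.

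S1pr1 minus S1pr2 kept its direction under all alternatives run, from 0.34 to 0.43 when single libraries were left out. Ccr2 minus Cx3cr1 had no stable sign: it was -0.17 after the length and GC correction, and -0.22 to 0.30 when single libraries were left out, with -0.22, -0.04, -0.01 and -0.15 without untreated replicate 2, untreated replicate 3, RvD1 replicate 1 and RvD1 replicate 3.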
